A study of Mus musculus with 18 samples.

Results

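The genes described here are 10 genes of necroptosis and death receptor signalling: Tnfrsf1a, Tradd, Fadd, Ripk1, Ripk3, Mlkl, Casp8, Cflar, Cyld and Tnfaip3. They were chosen as a pathway and matched by mouse Entrez identifier. No expression value enters that rule, but earlier results of these data were known when the genes were chosen. All 10 of them were found among the 36528 genes listed in each library, and all 10 passed the filter on low counts that left 16875 genes for testing. Polyadenylated RNA of mouse embryonic stem cells was sequenced in 18 libraries, 6 groups of 3. RNF2 places ubiquitin on histone H2A, and the deubiquitinase BAP1 takes it off.

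The groups were BAP1 wt cells (wild type); a BAP1 knockout control, the conditional line labelled without 4-hydroxytamoxifen (4OHT), called the untreated knockout line; the same line with 4OHT, the BAP1 knockout; a BAP1 C91A control without 4OHT, called the untreated C91A line; the knock-in BAP1 C91A mutant with 4OHT; and an RNF2-BAP1 double knockout with 4OHT. The drug was given at 100 nM over 4 days to switch on Cre recombination, and emricasan, a caspase inhibitor, was given to every group, wild type included. Whether the wild type also received 4OHT, which promoter drives Cre, and whether a line is 1 clone are not given in the sources used here. The controls lacked 4OHT, so the drug and Cre are part of each allele's effect. The double knockout had no control line of its own among the groups. Nothing in the labels says that replicates were separate cultures, so p-values measure only the spread between these libraries.

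As background, the TNF receptor encoded by Tnfrsf1a recruits the adaptor TRADD and the kinase RIPK1, and from there the signal can go to NF-kB, to apoptosis through FADD and caspase-8, or to necroptosis. In necroptosis RIPK3 phosphorylates MLKL, which then permeabilises the plasma membrane. Caspase-8 together with cFLIP, the product of Cflar, holds this branch back, and caspase inhibitors are commonly used to permit necroptosis in cultured cells. CYLD and A20 (from Tnfaip3) edit the ubiquitin chains on the complex.

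Depth ran from 8.11 to 23.04 M (mega) counts per library, lowest in replicate 2 of the knockout. Rnf2, checked as a targeted gene, was at 77.4, 75.6 and 70.6 CPM (counts scaled to library size) in the double knockout and at 114, 127 and 128 in the knockout. Bap1 was at 151, 147 and 152 CPM in the knockout and at 171, 183 and 182 in wild type, and counts over a whole gene cannot show a deleted exon or a point mutation, so genotypes were checked only in part. In the untreated C91A line Bap1 stood at 93.8, 84.8 and 88.0 CPM, below wild type (log2 fold change -1.01, SE 0.05), and in the C91A mutant at 163, 166 and 166 (0.895, SE 0.05, adjusted p = 8.3e-19). Each C91A change below, and each difference between the alleles, therefore sets the mutant against a line with less Bap1 transcript, whose part in the results was not tested. Markers of embryonic stem cells had none of the 10 at 0, and summed to 3910 to 4060 CPM in the knockout against 4770 to 4880 in its line, 3420 to 3500 in the C91A mutant against 4320 to 4670 in its line, and 4370 to 4620 in the double knockout. Of those 10, 7 fell and 1 rose after knockout, beside 30.3% and 31.3% of all genes. In the C91A mutant 9 fell and 1 rose, beside 26.4% and 28.6% of all genes. In the double knockout 6 were higher and 3 lower than in the knockout, beside 32.6% and 30.6% of all genes. Markers of macrophages and leukocytes summed to 137 to 150 CPM in the knockout, against 57.7 to 59.9 in its untreated line, to 131 to 144 in the C91A mutant, against 62.4 to 69.5 in its line, and to 39.4 to 47.7 in the double knockout. Nearly all of this was Cd68, at 143 CPM in the knockout and 57.4 in its line. Csf1r (0.635 and 0.228) and Lyz2 (0.248 and 0.0302) were also higher in the knockout, while Cd14 was at 0.12 and 0.524 and Itgam at 0.0902 and 0.169. Of the 10 macrophage and leukocyte markers 4 were tested. After knockout 2 of these were called higher and 1 lower, beside 31.3% and 30.3% of all genes. Of those 10 markers Ptprc, Tyrobp and Cx3cr1 had no count in the knockout, and 8 stayed below 1 CPM there. Fibroblast markers summed to 47.1 to 50.8 CPM in the knockout, 26.1 to 26.6 in its line, 65.4 to 66.5 in the C91A mutant, 27.9 to 29.6 in its line and 80.9 to 83.0 in the double knockout. Endoderm markers summed to 20.0 to 21.6, 12.4 to 14.3, 31.3 to 33.0, 20.0 to 20.9 and 52.4 to 56.9 CPM in the same order. In wild type the embryonic stem cell markers summed to 4350 to 4550 CPM and those of macrophages and leukocytes to 44.8 to 53.1. Wild-type sums were 43.3 to 45.9 CPM for fibroblast markers and 33.7 to 35.8 for endoderm markers. The part of these markers and cell types in the results below was not tested.

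The upstream sequences of the kinases Ripk1 and Ripk3 and of the adaptor Fadd are shown because they are, with Mlkl, the 4 genes with the widest differences between knockout and double knockout. Promoter windows were read from RefSeq on GRCm38.p6, where 9 of the 10 genes had an entry, with 11 start sites and windows of 250 bases before and 50 after each start. Only bases outside every GENCODE exon and outside the RefSeq span of the gene are printed, which leaves none of the Mlkl window. Each runs 5′ to 3′ on the strand of the gene, and capitals mark matches to the motifs searched, on either strand.
Ripk1, chr13:34002113-34002224, plus strand: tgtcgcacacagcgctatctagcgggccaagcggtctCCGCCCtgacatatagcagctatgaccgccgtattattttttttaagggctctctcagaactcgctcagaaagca
Ripk3, chr14:55788866-55789107, minus strand: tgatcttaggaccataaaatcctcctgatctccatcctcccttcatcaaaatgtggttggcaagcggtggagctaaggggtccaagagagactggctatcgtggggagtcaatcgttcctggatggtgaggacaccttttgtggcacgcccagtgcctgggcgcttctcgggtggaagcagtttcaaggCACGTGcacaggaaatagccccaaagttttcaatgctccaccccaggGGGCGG
Fadd, chr7:144582464-144582691, minus strand: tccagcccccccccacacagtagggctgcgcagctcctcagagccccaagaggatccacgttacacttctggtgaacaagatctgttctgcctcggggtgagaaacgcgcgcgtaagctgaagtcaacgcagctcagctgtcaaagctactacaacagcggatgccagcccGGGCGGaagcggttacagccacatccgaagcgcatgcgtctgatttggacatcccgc

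Each of the printed stretches holds 1 match to the SP1 GC box (GGGCGG). That motif lies in 35.9% of 32534 promoter windows of 300 bases, which are longer than the printed stretches. Ripk3 also holds an E-box (CACGTG), found in 7.17% of promoters, 61 to 56 bases before its start. The Mlkl window has 1 match, to an ETS motif (CCGGAAG, in 8.92% of promoters), which spans the start site. No motif was shared by all 4 windows. The other motifs searched were CCAAT (37.4% of promoters), an NF-kB consensus (20.8%), TATAAA (13.6%), the YY1 motif GCCATNTT (6.08%), the forkhead motif GTAAACA (3.66%) and an interferon response consensus (3.45%). GC box and ETS matches can touch or overlap one another. The windows of Ripk3 and Mlkl hold 10 and 7 CpG dinucleotides, beside a median of 7 over all promoters, and those of Ripk1 and Fadd 22 each at the starts shown. These matches describe letters and were not tested as sites.

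On the authors' RPKM scale, which corrects for gene length and so allows levels of different genes to be set side by side, the receptor Tnfrsf1a was the most abundant of the 10 in wild type at 13.9 RPKM (SD 0.566, n = 3). Ripk3 followed at 8.14 (SD 0.335) and Tradd at 6.5 (SD 1.34). The deubiquitinase gene Cyld was at 3.2 (SD 0.283), Mlkl at 2.25 (SD 0.166) and Fadd at 1.44 (SD 0.124). Ripk1, Tnfaip3, Cflar and Casp8 were each below 1 RPKM, at 0.913, 0.857, 0.701 and 0.673. After knockout Tnfrsf1a stood at 13.2 RPKM, Tradd at 2.5, Ripk3 at 1.36 and Mlkl at 0.213.

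**Figure D1:**
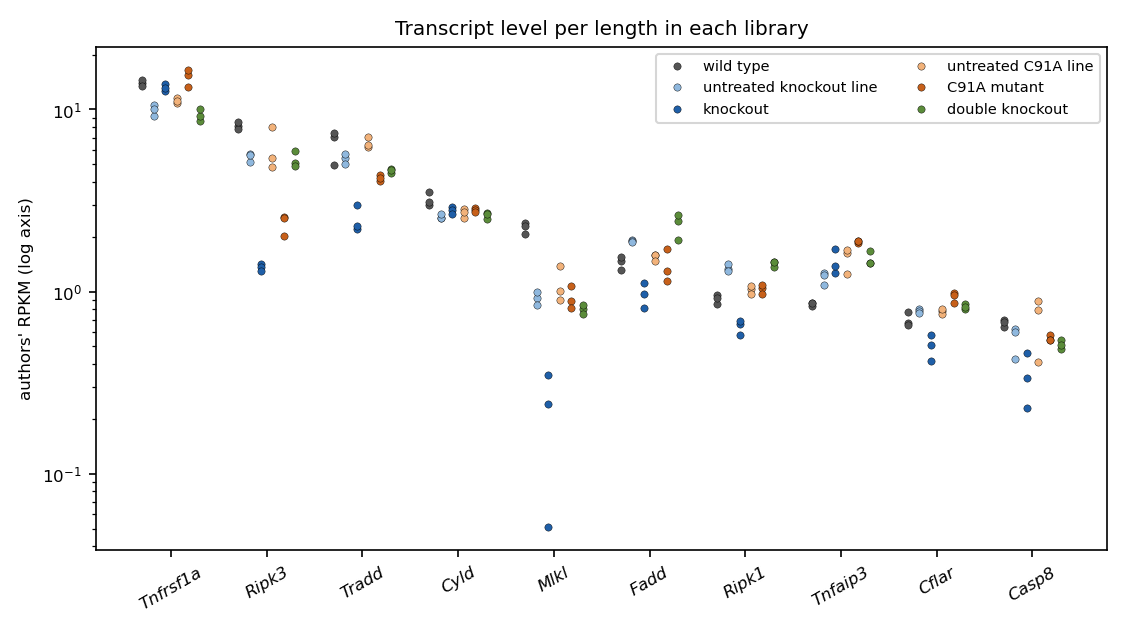
Length-corrected level (the authors' RPKM, log axis) of each of the 10 genes in each library, coloured by group. In wild type Tnfrsf1a is the highest of the 10 genes, at a mean of 13.9 RPKM. The lowest group means are those of Mlkl and Casp8 in the knockout, 0.213 and 0.342 RPKM.

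After BAP1 knockout, 6 of the 10 transcripts fell against the untreated line, 1 rose and 3 did not pass the test. Those that fell were the kinases Ripk3 and Ripk1, the effector Mlkl, the adaptors Tradd and Fadd, and the caspase-8 regulator Cflar, and the receptor Tnfrsf1a rose. Over all genes tested 30.3% fell and 31.3% rose in this comparison, 61.6% in all, so a call by itself is common here. The median log2 fold change was -0.85 over the 10 genes and -0.01 over all genes. Falls of at least 2-fold were called for 10.5% of all genes, and Ripk3, Mlkl, Ripk1 and Tradd were among them. In these bulk libraries fewer cells of a type and less RNA per cell cannot be told apart.

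**Figure D2:**
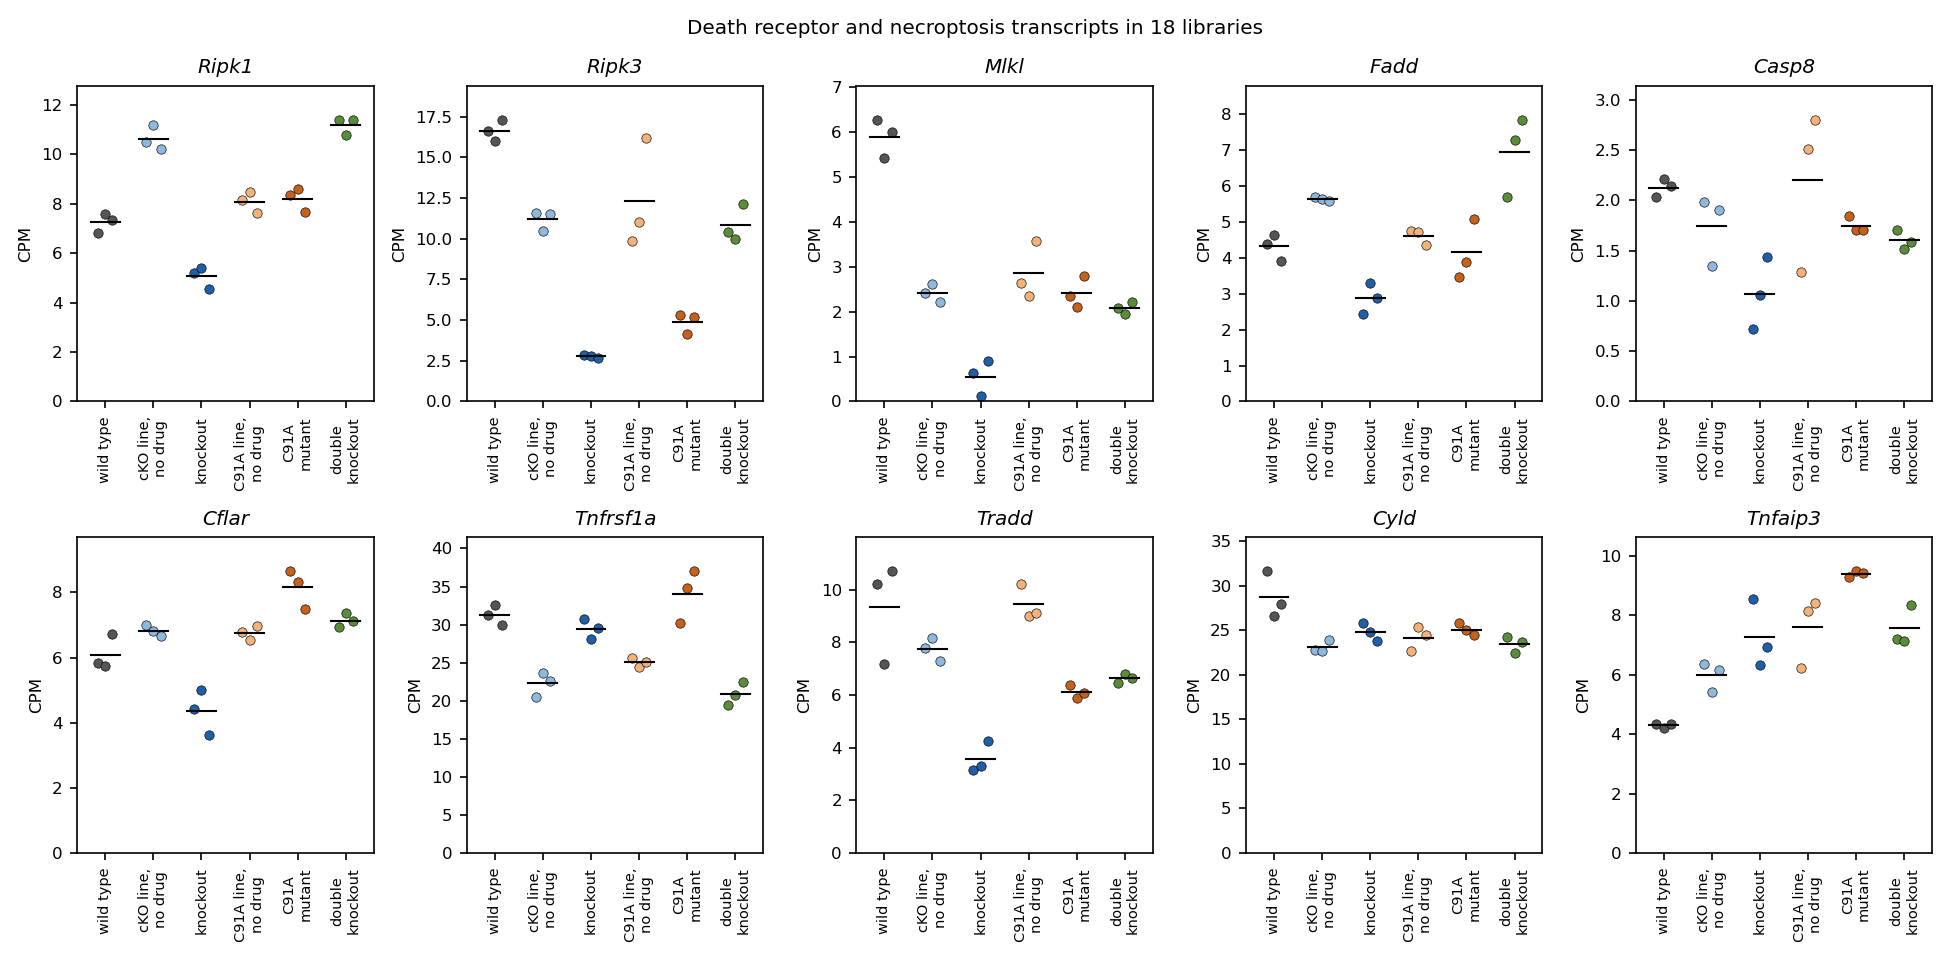
CPM of each of the 10 genes in every library, with 6 groups of 3 libraries and the group mean marked. The knockout has the lowest group mean for Ripk1, Ripk3, Mlkl, Fadd, Casp8, Cflar and Tradd. Its Casp8 points overlap those of both untreated lines.

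Tnfrsf1a encodes the TNF receptor that carries a death domain (6:125349723-125362483 on GRCm38.p6, plus strand). It was measured at 31.2, 32.6 and 30.0 CPM in wild type, 20.5, 23.7 and 22.6 in the untreated knockout line and 30.7, 28.1 and 29.5 in the knockout. The knockout libraries all lay above those of their line, and the gene rose by 0.41 on the log2 scale (SE 0.08, adjusted p = 3.7e-05 from the quasi-likelihood test of edgeR, adjusted over all genes tested by the Benjamini-Hochberg method, as for each adjusted p here). The C91A lines held 25.6, 24.4 and 25.1 CPM untreated and 30.2, 34.8 and 37.0 with 4OHT, again without overlap, a rise of 0.45 (SE 0.08, adjusted p = 4e-06). The difference between both effects was -0.04, with a 95% interval of -0.26 to 0.18. In the double knockout the level was 19.4, 20.7 and 22.4 CPM, below every knockout library (log2 fold change -0.50, SE 0.08, adjusted p = 2.3e-06). It was the only one of the 10 called lower there.

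Tradd encodes the adaptor that joins the receptor's death domain to RIPK1 (8:105258575-105264594, minus strand). Its libraries stood at 10.2, 7.18 and 10.7 CPM in wild type, 7.78, 8.17 and 7.28 in the untreated knockout line, and 3.15, 3.3 and 4.27 in the knockout. No knockout library reached the lowest of its line, a fall of 1.07 on the log2 scale (SE 0.16, adjusted p = 2.8e-07). It also fell in the C91A mutant, from 10.2, 9.01 and 9.12 CPM to 6.38, 5.87 and 6.08 (log2 fold change -0.62, SE 0.14, adjusted p = 0.00017). The difference between the effects was -0.45 (95% interval -0.87 to -0.03, adjusted p = 0.12), so a larger fall after knockout was not called. Double knockout libraries held 6.47, 6.79 and 6.66 CPM, above the knockout by 0.85 (SE 0.17, adjusted p = 3.3e-05) and below wild type at -0.49 (SE 0.13, adjusted p = 0.0015). The latter was not called when all libraries were thinned to equal depth (-0.36, adjusted p = 0.077).

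Fadd encodes the adaptor that brings caspase-8 to the complex (7:144578323-144582441, minus strand). It was at 4.4, 4.65 and 3.91 CPM in wild type, 5.71, 5.65 and 5.59 in the untreated knockout line and 2.43, 3.3 and 2.89 in the knockout, on 25 to 48 counts. All 3 knockout libraries lay below every other library of the series, and the fall was 0.99 on the log2 scale (SE 0.18, adjusted p = 7.5e-06). The untreated C91A line held 4.75, 4.72 and 4.36 CPM and the mutant 3.48, 3.89 and 5.09. These groups overlapped, with replicate 3 of the mutant highest, and the change of -0.13 did not pass the test (95% interval -0.45 to 0.19). The difference between the alleles was called (-0.86, SE 0.25, adjusted p = 0.0076), but not at equal depth (-0.68, adjusted p = 0.13) or without replicate 3 of the C91A mutant (-0.65, adjusted p = 0.065). Fadd stood at 5.69, 7.29 and 7.85 CPM in the double knockout, above the knockout by 1.30 (SE 0.18, adjusted p = 3.1e-08) and above wild type by 0.70 (SE 0.15, adjusted p = 8.9e-05). The GENCODE annotation places 239 of its 3903 exon bases opposite the antisense gene Faddos, which was not used here, and the sources used here do not give strand use in counting, so reads there cannot be told apart.

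Ripk1 encodes the kinase and scaffold on which survival and death signals part (13:34002225-34035170, plus strand). It stood at 6.82, 7.58 and 7.34 CPM in wild type, 10.5, 11.2 and 10.2 in the untreated knockout line and 5.22, 5.42 and 4.57 in the knockout. The knockout libraries were the lowest of the series, a fall of 1.10 on the log2 scale against their line (SE 0.13, adjusted p = 5.1e-10). The C91A libraries held 8.14, 8.46 and 7.62 CPM untreated and 8.37, 8.59 and 7.67 as mutant, ranges that overlap, and the change was 0.01 (95% interval -0.21 to 0.24). That interval excludes a fall of the size seen after knockout, and the difference between the alleles was -1.11 (SE 0.17, adjusted p = 3.2e-06). The double knockout held 11.4, 10.8 and 11.4 CPM, above all knockout libraries (log2 fold change 1.18, SE 0.13, adjusted p = 1.2e-10) and overlapping the untreated knockout line. Its exons also overlap those of Gm17084 on the same strand, which was not used here. Of its 8344 exon bases 241 lie opposite Serpinb6a, which differed by -0.16 (SE 0.06) after knockout and -0.20 (SE 0.06) in the double knockout against the knockout.

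Ripk3 encodes the kinase that commits a cell to necroptosis (14:55784995-55788857, minus strand). Wild-type libraries held 16.6, 16.0 and 17.3 CPM, the untreated knockout line 11.6, 10.5 and 11.5, and the knockout 2.88, 2.77 and 2.65. The knockout libraries were again the lowest of the series, and the transcript fell 4.07-fold (log2 fold change -2.02, SE 0.17, adjusted p = 2.7e-13), the lowest fitted value of the 10 genes, though Mlkl ranged lower under some alternatives. Unlike for Ripk1, the C91A mutant was also low, at 5.32, 4.16 and 5.2 CPM against 9.83, 11.01 and 16.2 in its line (log2 fold change -1.32, SE 0.14, adjusted p = 2.3e-10). Replicate 3 of the untreated C91A line stood apart here, and the C91A change without it was -1.09. The difference between the alleles was -0.70 (SE 0.24, adjusted p = 0.026), and it lost its call when any 1 of 5 libraries was left out: replicate 1 (-0.58, adjusted p = 0.061) or 2 (-0.61, adjusted p = 0.06) of the untreated C91A line, replicate 1 (-0.65, adjusted p = 0.056) or 3 (-0.64, adjusted p = 0.076) of the mutant, or replicate 3 of the knockout (-0.66, adjusted p = 0.096). The double knockout held 10.4, 9.97 and 12.1 CPM, above the knockout by 1.99 (SE 0.18, adjusted p = 6.9e-13), overlapping the untreated knockout line and below wild type (-0.61, SE 0.12, adjusted p = 2.8e-05).

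Mlkl encodes the substrate of RIPK3 that forms the membrane lesion (8:111311255-111338479, minus strand). Wild type stood well above all other groups, at 6.27, 5.42 and 6.0 CPM. The untreated knockout line held 2.42, 2.61 and 2.22 CPM and the knockout 0.63, 0.132 and 0.903, from 7, 1 and 15 counts. The fall was 1.90 on the log2 scale (SE 0.31, adjusted p = 1.3e-06), and it was called under each of the 12 alternatives, between -2.48 and -1.60. In the C91A mutant the libraries held 2.34, 2.11 and 2.79 CPM, overlapping 2.64, 2.34 and 3.58 in the line (log2 fold change -0.20, 95% interval -0.63 to 0.22). The difference between the alleles was the widest of the 10, at -1.69 (SE 0.39, adjusted p = 0.00099). The double knockout held 2.09, 1.95 and 2.21 CPM, above the knockout by 1.69 (SE 0.32, adjusted p = 1.9e-05), and still below wild type at -1.48 (SE 0.19, adjusted p = 1.3e-08). Both untreated lines were below wild type as well, by -1.28 (SE 0.18) and -1.07 (SE 0.18), so the wild-type level was not reached in any conditional line.

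Casp8 and Cflar encode the protease and its catalytically inactive partner that restrain RIPK3. Casp8 (1:58795233-58847503, plus strand) was, beside Mlkl, the gene with the fewest counts, 8, 8 and 24 in the knockout. Wild type held 2.03, 2.21 and 2.14 CPM. It stood at 0.72, 1.06 and 1.44 CPM there, overlapping the untreated line at 1.98, 1.35 and 1.9, and the difference of -0.63 was not called (95% interval -1.22 to -0.04, adjusted p = 0.067). It was called without replicate 2 of the untreated line (-0.78, adjusted p = 0.032) or replicate 3 of the knockout (-1.01, adjusted p = 0.027). Its C91A libraries held 1.29, 2.51 and 2.8 CPM untreated and 1.84, 1.7 and 1.7 as mutant, a change of -0.36 (95% interval -0.85 to 0.14). That change was called without replicate 1 of the untreated C91A line (-0.59, adjusted p = 0.045). Double knockout libraries held 1.7, 1.52 and 1.59 CPM, all above the knockout, though the difference of 0.51 was not called (95% interval -0.10 to 1.13).

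Cflar (1:58711311-58758884, plus strand) held 5.83, 5.73 and 6.72 CPM in wild type, 6.99, 6.81 and 6.65 in the untreated knockout line and 4.41, 5.02 and 3.61 in the knockout. The knockout libraries were the lowest of the series, a fall of 0.70 on the log2 scale (SE 0.15, adjusted p = 6.9e-05). In the C91A lines the order was the opposite, with 6.78, 6.55 and 6.97 CPM untreated and 8.65, 8.32 and 7.5 in the mutant. The groups did not overlap, yet the difference of 0.27 missed the threshold (95% interval 0.02 to 0.51, adjusted p = 0.065). The difference between the alleles was -0.97 (SE 0.19, adjusted p = 0.00017). In the double knockout the gene stood at 6.93, 7.37 and 7.11 CPM, above the knockout by 0.76 (SE 0.15, adjusted p = 2.3e-05) and not called against wild type (0.23, 95% interval -0.02 to 0.47).

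Cyld and Tnfaip3 encode the ubiquitin editors. Cyld (8:88696878-88751946, plus strand), which removes ubiquitin chains from the complex, was the steadiest of the 10, between 22.4 and 31.6 CPM in all 18 libraries. Its knockout and C91A changes were 0.10 (95% interval -0.06 to 0.25) and 0.05 (95% interval -0.10 to 0.20), and the double knockout differed from the knockout by -0.08 (95% interval -0.24 to 0.08). Only wild type stood apart, at 31.6, 26.6 and 27.9 CPM, above both untreated lines. Tnfaip3 (10:19000910-19015410, minus strand), the gene of A20 and a known NF-kB target, held 4.34, 4.2 and 4.34 CPM in wild type, the lowest group. The untreated knockout line stood at 6.37, 5.41 and 6.17, overlapping the knockout at 8.55, 6.34 and 6.92 (log2 fold change 0.29, 95% interval 0.01 to 0.56, adjusted p = 0.071), and the change was called without replicate 2 of the knockout (0.35, adjusted p = 0.043). In the C91A mutant it rose to 9.29, 9.48 and 9.42 CPM from 6.24, 8.16 and 8.4 (log2 fold change 0.30, SE 0.13, adjusted p = 0.044). That call was lost under 9 of 12 alternatives, DESeq2 among them (adjusted p = 0.074). The double knockout held 7.19, 7.15 and 8.34 CPM, within the knockout's range (0.06, 95% interval -0.21 to 0.34).

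**Figure D3:**
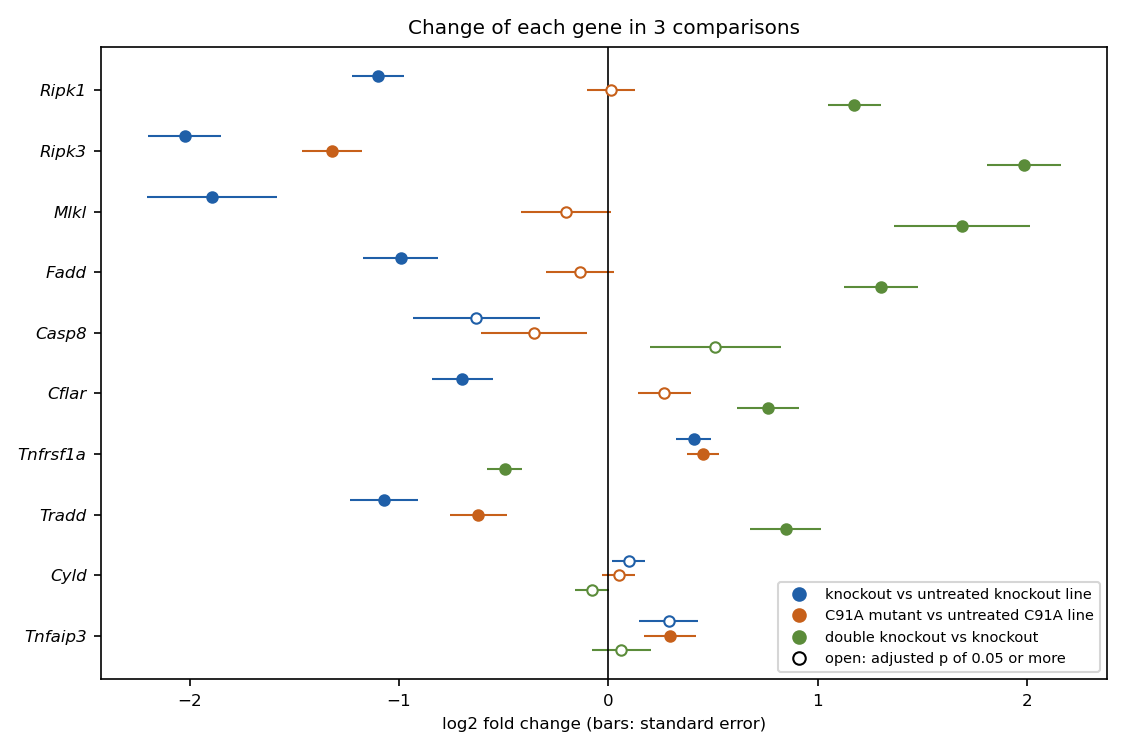
Log2 fold changes of the 10 genes, with bars of 1 standard error and open points where the test was not passed, in knockout against its untreated line, C91A mutant against its untreated line and double knockout against knockout. Ripk3, Mlkl and Ripk1 lie at -2.02, -1.90 and -1.10 after knockout, and at -1.32, -0.20 and 0.01 in the C91A mutant.

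In the C91A mutant, whose BAP1 lacks the catalytic cysteine, 4 of the 10 genes changed: Ripk3 and Tradd fell, and Tnfrsf1a and Tnfaip3 rose. Over all genes 55.0% were called, 28.6% higher and 26.4% lower. The median of the 10 was -0.06, beside -0.01 over all genes. The difference of the knockout and C91A effects was called for 5 of the 10, namely Mlkl, Ripk1, Cflar, Fadd and Ripk3, and in each the knockout lay lower. Over all genes 25.9% were called in that test, 13.8% lower and 12.2% higher, and the median of the 10 was -0.58. The calls for Mlkl, Ripk1 and Cflar held under every alternative, and those for Fadd and Ripk3 did not, as given above. Tnfrsf1a, Cyld, Tnfaip3, Tradd and Casp8 were not called different between the alleles.

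**Figure D4:**
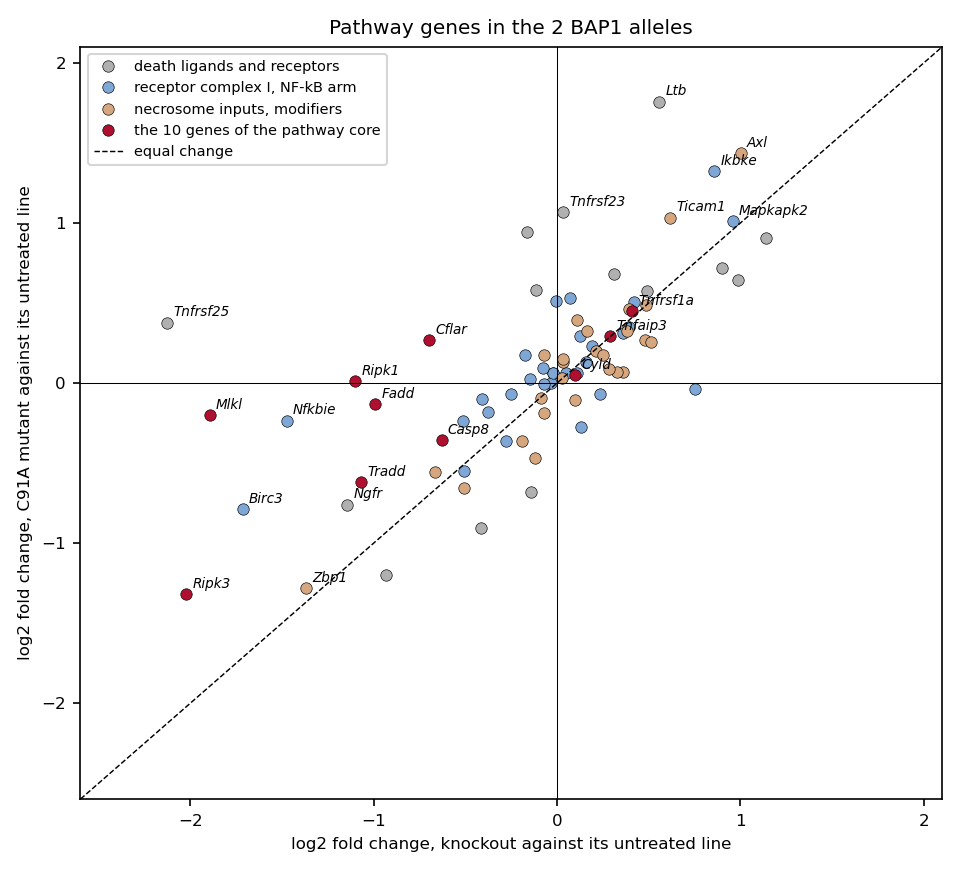
Log2 fold change after knockout (horizontal axis) against that in the C91A mutant (vertical axis), each relative to its own untreated line, for the 10 genes and the tested genes of 3 pathway lists. Mlkl (-1.90 and -0.20), Ripk1 (-1.10 and 0.01) and Cflar (-0.70 and 0.27) lie above the dashed line of equal change, and Tnfrsf1a (0.41 and 0.45) lies near it.

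In the RNF2-BAP1 double knockout, 6 of the 10 genes were higher than in the BAP1 knockout, 1 was lower and 3 were not called. The higher ones were Ripk3, Mlkl, Fadd, Ripk1, Tradd and Cflar, and the lower one was Tnfrsf1a. Over all genes 63.2% were called, 32.6% higher and 30.6% lower, and the median was 0.80 over the 10 and 0.03 over all. This comparison uses the same knockout libraries as the knockout comparison, so opposite signs in both are not independent. Against wild type, which shares no library with the knockout, 3 of the 10 were higher in the double knockout (Tnfaip3, Fadd and Ripk1) and 5 were lower (Mlkl, Ripk3, Tnfrsf1a, Tradd and Cyld), beside 26.2% and 27.1% of all genes (53.3% in all). Casp8 and Cflar were not called against wild type. The untreated knockout line already differed from wild type in 7 of the 10 genes, beside 39.3% of all genes. There Ripk1 (0.56, SE 0.10), Tnfaip3 (0.48, SE 0.14) and Fadd (0.39, SE 0.15) were higher, and Mlkl (-1.28, SE 0.18), Ripk3 (-0.57, SE 0.11), Tnfrsf1a (-0.49, SE 0.08) and Cyld (-0.31, SE 0.07) lower. The Fadd call was lost under 7 of its alternatives, which include DESeq2 (0.39, adjusted p = 0.057). The untreated C91A line differed from wild type in 5 of the 10, beside 27.6% of all genes, with Tnfaip3 higher (0.83, SE 0.14) and Mlkl (-1.07, SE 0.18), Ripk3 (-0.44, SE 0.12), Tnfrsf1a (-0.33, SE 0.08) and Cyld (-0.24, SE 0.07) lower. That Cyld call was lost at equal depth (-0.24, adjusted p = 0.05), without replicate 1 of the untreated C91A line (-0.20, adjusted p = 0.067) or without replicate 1 of wild type (-0.17, adjusted p = 0.12).

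Across the 6 groups the knockout had the lowest mean for Ripk1, Ripk3, Mlkl, Fadd, Casp8, Cflar and Tradd. How common this is over all genes was not counted. For Casp8 the knockout reached 1.44 CPM, overlapping the untreated knockout line (from 1.35) and the untreated C91A line (from 1.29). Wild type was highest for Ripk3, Mlkl and Cyld, the C91A mutant for Cflar, Tnfrsf1a and Tnfaip3, the double knockout for Ripk1 and Fadd, and the untreated C91A line for Casp8 and Tradd. For Ripk3 the 4 upper groups form a chain of overlapping ranges, from wild type at 16.7 CPM (SD 0.661) to the double knockout at 10.8 (SD 1.10). The C91A mutant at 4.89 (SD 0.639) and the knockout at 2.77 (SD 0.117) each stood clear below. For Mlkl the untreated C91A line, the C91A mutant and the untreated knockout line overlapped between 2.85 and 2.42 CPM. Over the 18 libraries the genes whose log2 CPM followed Ripk3 most closely were Srl (Pearson r 0.977), Mat2a (0.974) and Adad2 (0.973). For Ripk1 they were Nfkbie (0.944), Cenpb (0.940) and Tbc1d10b (0.939). These values describe libraries that share groups and lines, and carry no test.

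Among 18 death ligands and receptors, 14 were tested. The genes of the classical death ligands, Tnf, Fasl and Tnfsf10, were not, having too few counts. After knockout 6 of the 14 rose and 4 fell, with a median of -0.04, beside 31.3% and 30.3% of all genes. In the C91A mutant 8 rose and 4 fell, with a median of 0.61, beside 28.6% and 26.4% of all genes. Ltb, the gene of lymphotoxin beta, rose by 0.56 (SE 0.13) after knockout and by 1.76 (SE 0.13) in the mutant. Its rise after knockout was called under 11 of 12 alternatives, which ranged from 0.34 to 0.66. Ngfr, a neurotrophin receptor with a death domain, fell by 1.15 (SE 0.15) and 0.76 (SE 0.13). Tnfrsf25, another death domain receptor, fell by 2.13 after knockout (SE 0.68, adjusted p = 0.0063) on 0 to 3 counts per knockout library, and this was not called without replicate 3 of the knockout (-1.26). The decoy receptor gene Tnfrsf23 was at 0.03 (95% interval -0.94 to 1.01) after knockout and rose by 1.07 (SE 0.42) in the C91A mutant, a call lost without replicate 1 (0.77) or 3 (0.94) of the untreated C91A line or replicate 3 of the mutant (adjusted p = 0.081). In the double knockout 6 of the 14 were higher than in the knockout and 5 lower, beside 32.6% and 30.6% of all genes. The difference between the alleles was called for 7, with the knockout higher for 3 and lower for 4, beside 12.2% and 13.8% of all genes.

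Of 31 genes of the receptor's survival complex and the NF-kB arm, 30 were tested, and 9 rose and 10 fell after knockout with a median of -0.01, close to the 31.3% and 30.3% of all genes. In the C91A mutant 10 rose and 6 fell, beside 28.6% and 26.4%. The deepest falls after knockout were Birc3, which encodes the ubiquitin ligase cIAP2, by 1.72 (SE 0.23, adjusted p = 2.8e-08), and Nfkbie, an inhibitor of NF-kB, by 1.47 (SE 0.17, adjusted p = 5.8e-10). Nfkbie was at -0.23 (95% interval -0.54 to 0.07) in the C91A mutant, and the difference between alleles was -1.24 (SE 0.23, adjusted p = 8e-05). Birc3 fell by 0.79 in the mutant (SE 0.19), and its difference was -0.92 (SE 0.31, adjusted p = 0.024). That difference was called under only 12 of 18 alternatives. Those that lost it include equal depth (-1.03, adjusted p = 0.069) and leaving out 1 of 4 particular libraries. Mapkapk2, a kinase that phosphorylates RIPK1, rose by 0.96 (SE 0.05) and 1.01 (SE 0.05), and Ikbke, an NF-kB pathway kinase, by 0.86 (SE 0.32) and 1.32 (SE 0.24). The Ikbke call after knockout was lost at equal depth (0.91, adjusted p = 0.073) and without replicate 1 of the untreated line (0.71) or replicate 3 of the knockout (0.70). In the double knockout Nfkbie and Birc3 were 1.46 (SE 0.17) and 1.58 (SE 0.24) above the knockout, and Mapkapk2 was lower by a log2 fold change of -1.05 (SE 0.05). Of the 30 genes, 10 were higher and 11 lower there, beside 32.6% and 30.6% of all genes. At equal depth 13 of the 30 were called in all. Over all genes 9306 were called at equal depth, against 10671 in the main fit.

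Of 28 genes that feed the necrosome, modify it or limit the MLKL pore, 26 were tested. After knockout 13 rose and 4 fell with a median of 0.14, beside 31.3% and 30.3% of all genes. In the C91A mutant 14 rose and 7 fell with the same median, beside 28.6% and 26.4% of all genes. Zbp1, a nucleic acid sensor that binds RIPK3, fell in both, by 1.37 (SE 0.45, adjusted p = 0.0083) and 1.28 (SE 0.23, adjusted p = 9.9e-06). Knockout libraries held 3 to 4 counts of it, and its fall there was not called at equal depth (-0.83) or without replicate 3 of the knockout (-0.98). Ticam1, which encodes the adaptor TRIF, rose by 0.62 (SE 0.13) and 1.03 (SE 0.12). Axl, a receptor tyrosine kinase, rose by 1.003 (SE 0.10) and 1.44 (SE 0.09). In the double knockout 4 of the 26 were higher than in the knockout and 13 lower, beside 32.6% and 30.6% of all genes, with Zbp1 higher by 1.92 (SE 0.43), Axl at -0.35 (SE 0.09) and Ticam1 at -0.02 (95% interval -0.26 to 0.23).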

How the data were processed

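Per the labels' protocols, RNA was purified with column DNase treatment, made into TruSeq libraries and read as single ends of 50 bases. Per the submitters' processing notes, GSNAP and GRCm38 were used. The sources used here do not give versions, strand use or the size-factor method. Per the file headers, the deposited count is the number of reads aligning uniquely to a gene model, and the deposited RPKM is adjusted by the authors' size factors.

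Counts were tested with edgeR 4.0.16 (limma 3.58.1, R 4.3.3): filterByExpr on the groups, TMM scaling, the quasi-likelihood test with 1 mean per group and all 18 libraries sharing the spread, and Benjamini-Hochberg adjustment over 16875 genes, with calls at an adjusted p under 0.05. CPM uses the TMM-scaled library size. Each SE comes from the F statistic (log2 fold change over root F), and 95% intervals use the normal quantile. Dispersion was 0.002 in common, or 4.47% variation between replicates. Libraries within groups differed beyond sampling noise (chi-square per degree of freedom 1.74 to 5.41). Replicates have no numbers in the labels and were numbered in order of accession. Scripts were checked on simulated data. RPKM served only for levels between genes.

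The genes, lists and tests were chosen with earlier results of these data known. Besides the 10 genes, Bap1 and Rnf2, the rule named up to 4 genes per list with the largest absolute log2 fold change, among those called with at least 1 in a main comparison, and the 3 genes most like Ripk1 and Ripk3. Alternatives were DESeq2 1.42.0, RLE scaling, the authors' size factors, no filter on low counts, equal depth, only the groups compared, and leaving out each library in turn.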

Additional observations from a re-analysis of the deposited data

Results flagged for a closer look

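For each gene below the knockout change and the C91A change differed, by a test of the difference of the effects in 1 fit (log2 knockout change minus log2 C91A change). The drug and Cre are part of each effect, and the untreated C91A line held less Bap1 transcript than wild type. Against wild type the untreated knockout line was called higher for Ripk1 (0.56) and Fadd (0.39). The untreated C91A line was called for neither (0.16 and 0.10). Both lines were lower than wild type for Mlkl and Ripk3, and neither was called for Cflar. The part of the drug, Cre and the starting lines in these differences was not tested. Among the 10 genes these were Mlkl (-1.69), Ripk1 (-1.11), Cflar (-0.97), Fadd (-0.86) and Ripk3 (-0.70). Among the pathway genes named by rule for a change of at least 2-fold in a main comparison they were Tnfrsf25 (-2.50), Nfkbie (-1.24), Ltb (-1.20), Birc3 (-0.92) and Axl (-0.43). In each gene named here the knockout change was the lower one, which does not hold for the pathway lists as a whole. There the knockout was called higher and lower for 3 and 4 of 14 death ligands and receptors. The counts were 2 and 7 of 30 genes of the survival complex and NF-kB arm, and 5 and 1 of 26 necrosome inputs and modifiers. Over all genes 12.2% were called higher and 13.8% lower. The Ripk3, Fadd, Tnfrsf25, Birc3 and Axl calls were lost when at least 1 library was left out.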

How the results depend on the processing

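The number of the 10 genes called, 7 after knockout, 4 in the C91A mutant, 5 for the difference of the effects, 7 in the double knockout against the knockout and 8 against wild type, and 7 and 5 in the untreated lines against wild type, stayed within 1.5 times under every alternative except for the difference, which ranged from 3 to 5 when 1 library was left out and was lowest without replicate 3 of the C91A mutant. Of 43 calls among the 10 genes, 37 were kept under every alternative. How many calls over all genes were kept was not counted. The number called over all genes was lowest at equal depth. There it was 0.88 times the main number after knockout, 0.84 in the C91A mutant and 0.77 for the difference. It was 0.87 times for the double knockout against the knockout and 0.81 against wild type. For the untreated knockout and C91A lines against wild type it was 0.75 and 0.74. Values near 0 changed sign. Ripk1 in the C91A mutant was at -0.16 with equal depth, at 0.00 with only the groups compared and at -0.02 to 0.06 with 1 library left out. For the difference, Tnfaip3 was at 0.01 with the authors' size factors and at -0.13 to 0.10 with 1 library left out, Tnfrsf1a at -0.12 to 0.04, and Zbp1 at 0.33 with equal depth and at -0.30 to 0.30. In the double knockout against the knockout, Tnfaip3 ranged from -0.03 to 0.18, and Ticam1 from -0.14 to 0.08, with 0.02 at equal depth. Tnfrsf23 after knockout ranged from -0.46 to 0.71, with -0.14 at equal depth. In the untreated C91A line against wild type, Casp8 ranged from -0.10 to 0.30 and Tradd from -0.16 to 0.12. The cause of these changes was not tested. No paired analysis was possible because the labels give no replicate numbers. Depth limits Mlkl (1 to 126 counts per library) and Casp8 (8 to 59) most.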
